A study of Mus musculus with 6 samples.

Results

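The insulin receptor, PI3-kinase and Akt genes are 8 genes of the signalling chain that runs from the cell surface to the FoxO factors: Igf1r, Insr, Irs1, Irs2, Pik3r1, Pik3ip1, Akt1 and Akt2. They were taken as a fixed list, and all of their 23 probe sets annotated to a single gene were read, out of 45101 probe sets on the array. All 8 genes passed the filter on low signals, among the 12665 genes tested. Total RNA of 6 mouse neural stem cell lines, which the study calls independent, was measured on 1 Affymetrix array each, 3 lines labelled FoxO-null and 3 labelled wild-type. The study asked which transcripts differ between lines without and with FoxO genes. Which FoxO genes the null lines lack, by which alleles and driver, the strain and age of the animals, and the culture conditions are not given in the sources used here, and the labels name no treatment.

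Insulin and the insulin-like growth factors bind the receptor tyrosine kinases encoded by Insr and Igf1r, which phosphorylate the adaptors Irs1 and Irs2. The adaptors recruit PI3-kinase, whose lipid product brings Akt to the membrane, and active Akt phosphorylates FoxO transcription factors and holds them out of the nucleus. FoxO factors in turn are known to switch on genes of this same chain, among them Insr and Irs2, so that FoxO activity and receptor signalling are coupled. In neural stem cells, insulin and insulin-like growth factors are survival and growth signals.

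Signals of the FoxO genes were mostly higher in the lines labelled FoxO-null. Of 9 probe sets for Foxo1, Foxo3 and Foxo4, 8 averaged higher on the log2 scale in lines labelled FoxO-null. In 5 of the 9, all 3 arrays labelled FoxO-null exceeded all 3 labelled wild-type, as in 6.95% of all probe sets. Whether these probe sets read deleted or remaining sequence is not known here, and they were not used to check the labels. Foxo6 was not analysed here. For the probe set of smallest p of each gene, Foxo4 averaged 142 ± 73.4 in lines labelled FoxO-null and 8.95 ± 7.13 in lines labelled wild-type, Foxo1 85.3 ± 12.9 and 24.1 ± 6.51, and Foxo3 420.1 ± 34.9 and 227 ± 21.2 (SD, n = 3 each). The wild-type readings of this Foxo4 probe set, 5.56, 4.14 and 17.1, were under the background of their arrays (given below) and give no fold. The other Foxo4 probe set was the 1 that averaged lower, at 24.7 ± 11.8 against 31.0 ± 8.33. Whether the labels are exchanged was not tested, and an exchange would turn every direction given here. All directions and line names below (FoxO-null 1 to 3, wild-type 1 to 3) are those of the labels. The FoxO-null arrays had a higher background, set for each array by its highest Bacillus subtilis control probe set, at 19.2, 27.6 and 26.9 against 14.4, 15.8 and 19.1 on wild-type arrays. The array of wild-type line 1 stood apart with a 5' 18S rRNA control signal of 211, against 23.5 to 38.9 on the other 5. Of 11 measured neural stem and progenitor markers (of 12 listed), 5 were higher in lines labelled FoxO-null by unadjusted limma p under 0.05 (5.26% of all genes) and 0 lower. The adjusted threshold was passed by 1 of the 11 (0.0395% of all genes), and the median log2 fold change was 0.27. Their summed signals overlapped, at 32218 to 35510 in lines labelled FoxO-null and 25317 to 33521 in lines labelled wild-type. Nes (724, 757 and 997 against 826, 1163 and 1217) and Vim (10088, 10834 and 11638 against 9138, 13025 and 12587) averaged lower in lines labelled FoxO-null. All 11 were above background on all 6 arrays. By contrast, 5 of 8 microglia and blood markers (Ptprc, Aif1, Itgam, Tyrobp and C1qa) were at or below background on all 6. The sums of the microglia and blood markers (119.7 to 129.6 against 94.8 to 136.3) overlapped. So did those of the endothelial and mural markers (189 to 267 against 174 to 240.2). Summed signals were also compared without the gene whose group means differed most, a choice made after seeing the data. The 9 astrocyte markers summed to between 5842 and 6911 in lines labelled FoxO-null and to between 3870 and 5649 in lines labelled wild-type, with Gjb6 at or below background on all arrays, and without Aldoc the ranges still did not overlap. Of the 8 astrocyte markers tested, 4 were higher by unadjusted limma p under 0.05 and 0 lower (0 passed the adjusted threshold), with a median log2 fold change of 0.37. The 10 measured oligodendrocyte lineage markers (of 11) summed to between 17370 and 18026 against 13950 to 15567, with Mog at or below background throughout. Without Mbp the sums overlapped (12650.0 to 13724 against 11455 to 12714), with Olig1 the brightest marker left. Sox10, Cnp and Gpr17 were also higher in lines labelled FoxO-null without overlap, while Pdgfra, Cspg4, Olig1, Olig2 and Mag overlapped. Of the 9 tested, 5 were higher by unadjusted limma p under 0.05 and 0 lower (1 passed the adjusted threshold), with a median log2 fold change of 0.43. The sums of the 10 neuronal markers (2127 to 2461 against 2702 to 3063) and of the 8 fibroblast and meningeal markers (647 to 1092 against 290.5 to 591) were each kept apart by 1 gene. Without Gap43 the neuronal sums overlapped (1460.0 to 1507 against 1408 to 1736), with Map2 the brightest marker left. Tubb3, Syt1 and Neurod1 were also lower in lines labelled FoxO-null without overlap, and Syp was higher without overlap. Of the 10 neuronal markers, 2 were lower by unadjusted limma p under 0.05 (4.94% of all genes) and 0 higher, with a median log2 fold change of -0.21. Without Thy1 the fibroblast sums overlapped (289 to 440.3 against 250.3 to 414). The part of these markers, of the background and of the rRNA signal in the results below was not tested, and in RNA of whole cultures a change in the share of a cell type cannot be told apart from a change of RNA per cell.

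The genes did not move as one. Pik3ip1, which encodes a membrane protein that binds the catalytic subunit of PI3-kinase and lowers its activity, had 1.92 times the signal in the lines labelled FoxO-null (95% interval 1.48 to 2.49), and the receptor gene Igf1r had 1.54 times (1.25 to 1.89). Akt1, which encodes the most widely expressed Akt kinase, stood at 0.761 times (0.643 to 0.901). The intervals of the other 5 genes contained a ratio of 1. None of the 8 passed a Benjamini-Hochberg adjusted p of 0.05 over all genes in limma, where 0.0395% of all genes passed. Without adjustment, 3 of the 8 had a limma p under 0.05, as did 10.2% of all genes: Pik3ip1 and Igf1r were higher (5.26% of all genes) and Akt1 was lower (4.94%). The groups did not overlap in 4 of the 8, as in 16.0% of all genes: Pik3ip1 and Igf1r were higher on all 3 arrays labelled FoxO-null (8.08% of all genes), and Akt1 and Akt2 were lower (7.96%). The median log2 fold change of the 8 was 0.029, against 0.0098 for all genes tested. Ranked by p over the 12665 genes, Pik3ip1 was at position 18, Igf1r at 54 and Akt1 at 208. The list was drawn up with these results known, so the counts describe it and do not test it.

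**Figure D1:**
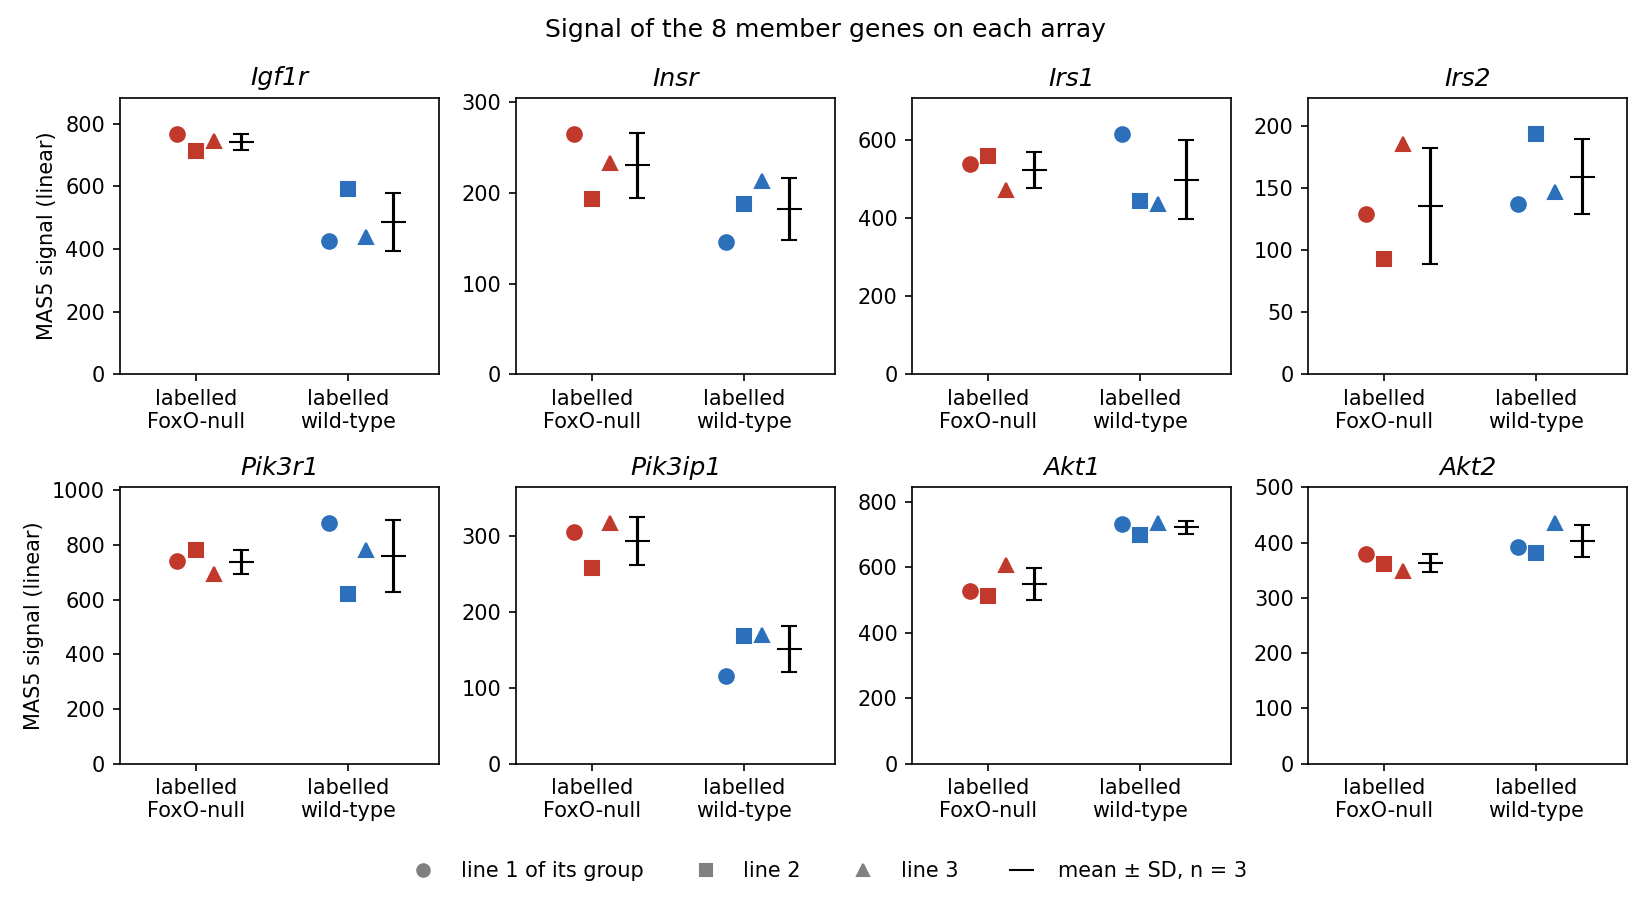
MAS5 signal on a linear scale from 0 for each of the 8 genes, 1 panel per gene and 1 point per line, with lines labelled FoxO-null in red on the left, lines labelled wild-type in blue on the right, and the mean ± SD (n = 3) beside them. The Pik3ip1 points lie between 258 and 316 in lines labelled FoxO-null and between 116 and 169 in lines labelled wild-type, and the points of Insr, Irs1, Irs2 and Pik3r1 overlap.

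The sequences before the transcription start are shown because FoxO factors bind DNA at short known motifs. RefSeq promoters (GRCm38.p6) were matched for 7 of the 8 genes, all but Insr, in 12 windows since several genes have more than 1 start, and the 250 bases before the start were searched on both strands for the FoxO consensus core GTAAACA and for CAAAACA, the core of the insulin response element. The first occurs in 3.17% of all 32851 promoter windows of this length and the second in 5.56%. The windows of the 3 genes of smallest p and of both adaptors are printed 5' to 3' in the direction of the gene. Capitals mark a match, here always the reverse complement, TGTTTAC or TGTTTTG.
Pik3ip1, chr11:3330481-3330730, plus strand: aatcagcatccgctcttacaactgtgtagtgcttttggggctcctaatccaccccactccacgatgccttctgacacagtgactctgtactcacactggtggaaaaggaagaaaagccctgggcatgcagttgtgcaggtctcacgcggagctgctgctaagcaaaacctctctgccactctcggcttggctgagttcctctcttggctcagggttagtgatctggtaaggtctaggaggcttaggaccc
Igf1r, chr7:67952007-67952256, plus strand: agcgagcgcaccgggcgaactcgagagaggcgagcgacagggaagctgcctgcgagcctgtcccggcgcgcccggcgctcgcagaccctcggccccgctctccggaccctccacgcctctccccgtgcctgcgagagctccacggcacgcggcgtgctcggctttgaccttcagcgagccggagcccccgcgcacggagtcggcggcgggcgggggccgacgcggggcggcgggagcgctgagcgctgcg
Akt1, chr12:112674885-112675134, minus strand: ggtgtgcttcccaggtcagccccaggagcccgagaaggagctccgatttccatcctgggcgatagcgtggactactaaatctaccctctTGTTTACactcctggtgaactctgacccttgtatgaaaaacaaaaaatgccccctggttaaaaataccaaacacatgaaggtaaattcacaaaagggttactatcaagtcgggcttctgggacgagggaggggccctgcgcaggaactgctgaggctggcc
Irs1, chr1:82291440-82291689, minus strand: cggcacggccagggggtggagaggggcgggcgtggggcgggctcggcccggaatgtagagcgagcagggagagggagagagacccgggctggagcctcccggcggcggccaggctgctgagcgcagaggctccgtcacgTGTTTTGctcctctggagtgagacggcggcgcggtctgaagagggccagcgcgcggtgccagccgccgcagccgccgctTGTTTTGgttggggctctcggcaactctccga
Irs2, chr8:11008930-11009179, minus strand: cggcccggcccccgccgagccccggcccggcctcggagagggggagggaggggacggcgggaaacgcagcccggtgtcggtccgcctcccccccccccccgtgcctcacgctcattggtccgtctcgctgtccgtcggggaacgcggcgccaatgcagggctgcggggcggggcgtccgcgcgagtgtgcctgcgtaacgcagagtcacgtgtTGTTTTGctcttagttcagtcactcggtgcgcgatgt
Of the 2 Akt1 windows, the one printed holds the consensus core, with its first base at position -161 counted from the start. The Irs1 window holds the response element core at 2 places and the Irs2 window at 1, where its first base is at -37. Neither was found in the 250 bases printed for Pik3ip1 or Igf1r. The windows with a match thus belong to Akt1, whose signals were lower in lines labelled FoxO-null, and to both adaptors, whose groups overlapped. Letters in a window show no binding, and a window without a match says only that the letters are not there.

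Igf1r, the receptor for insulin-like growth factors, was measured by 5 probe sets, all with a positive log2 fold change. The probe set that represents the gene, 1452982_at, the one of highest mean log2 value, read 767, 714 and 743 in FoxO-null lines 1 to 3, against 424, 592 and 439 in wild-type lines 1 to 3. Every line labelled FoxO-null was above every line labelled wild-type, and wild-type 2 was nearest to them. The means were 741 ± 26.7 and 485 ± 92.7 (SD, n = 3 each), a log2 fold change of 0.62 ± 0.14 (SE, limma adjusted p 0.175). A second probe set, 1426565_at, annotated to another sequence record, read 233, 235 and 215 against 137, 156 and 152. Its difference was nearly the same, 0.60 ± 0.13, again with no overlap. The other 3 probe sets were dimmer and less clear. 1428967_at, which is annotated to the same sequence record as 1452982_at, read 92.2, 85.0 and 51.5 against 64.5, 93.0 and 60.8, and so did not repeat the difference (0.047 ± 0.26). 1446303_at read 61.6, 41.9 and 50.1 against 43.0, 40.4 and 45.2, also with overlap (0.21 ± 0.27). 1452108_at, from the same record as 1426565_at, read 28.8, 26.8 and 43.6 against 19.6, 9.31 and 16.4. Its groups did not overlap (0.90 ± 0.42), but it lay near background, above it on 2 arrays labelled FoxO-null and 1 labelled wild-type. With the mean of the 4 probe sets above background on all arrays, an alternative chosen after seeing the data, the Igf1r difference was 0.37 (limma adjusted p 0.320).

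Insr encodes the insulin receptor itself, and its 3 probe sets disagreed. The representing 1434446_at read 265, 193 and 233 in lines labelled FoxO-null against 146, 188 and 213 in lines labelled wild-type. FoxO-null 2 lay below wild-type 3, so the groups overlapped, and the difference of 0.33 ± 0.17 had a limma adjusted p of 0.545. It moved with single arrays: leaving out wild-type 1 gave 0.19. Leaving out FoxO-null 2 gave 0.45 (unadjusted limma p 0.0358), and so did leaving out wild-type 3 (0.0339). 1450225_at ran the other way without overlap, at 37.5, 32.5 and 23.2 against 48.4, 40.7 and 57.9 (-0.58 ± 0.32, limma adjusted p 0.756 over all probe sets). 1421380_at, annotated to the same sequence record as 1450225_at, read 36.9, 2.71 and 17.99 against 17.7, 23.2 and 4.04. It was above background on 1 array labelled FoxO-null and 2 labelled wild-type and gave 0.12 ± 0.63. The 3 probe sets thus gave no single direction for Insr.

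The adaptors had 1 probe set each. Irs1 read 540.2, 561 and 472 in lines labelled FoxO-null and 616, 444 and 437 in lines labelled wild-type, where wild-type 1 was the highest of all and the other wild-type lines the lowest. Its ratio was 1.06, with a 95% interval of 0.848 to 1.33. Irs2, the adaptor whose transcription FoxO factors are known to raise in mouse liver, read 129, 92.6 and 185 against 137, 193 and 147. The lines of both groups were interspersed, and the ratio of 0.837 had an interval of 0.588 to 1.19. Lines labelled FoxO-null held both the lowest Irs2 value and the second highest: without FoxO-null 2 the log2 fold change was -0.021, and without FoxO-null 3 it was -0.50. Irs1 stood at 0.25 with wild-type 1 left out, at 0.011 with wild-type 2 left out and at 0.00088 with wild-type 3 left out. Neither adaptor passed the adjusted threshold under any of these, and Irs2 without FoxO-null 3 had an unadjusted limma p of 0.0407.

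Among the PI3-kinase genes, the regulatory subunit and the inhibitor differed in their pattern. Pik3r1 encodes the p85 alpha regulatory subunit and its shorter forms, which stabilise the catalytic subunit and dock it on the adaptors. Its representing probe set, 1438682_at, read 743, 780.3 and 693 in lines labelled FoxO-null against 879.8, 619 and 781 in lines labelled wild-type. The values of lines labelled FoxO-null lay within the wild-type range, and the ratio was 0.981 (0.798 to 1.21). The other 3 Pik3r1 probe sets, all annotated to a single sequence record, had log2 fold changes of -0.17 ± 0.17, -0.19 ± 0.14 and -0.22 ± 0.19. None of the 4 separated the groups.

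Pik3ip1 had the largest difference of the 8 genes, and its probe sets gave nearly the same size. The representing 1428332_at read 305, 258 and 316 in lines labelled FoxO-null and 116, 168 and 169 in lines labelled wild-type. The lowest FoxO-null line, at 258, stood above the highest wild-type line, at 169, with wild-type 1 the lowest of the 6, and the log2 fold change was 0.94 ± 0.17 (limma adjusted p 0.108). The second, 1439087_a_at, annotated to a different record, read 260.3, 190.4 and 147 against 87.4, 92.6 and 86.3. Here the wild-type lines were close together and the FoxO-null lines were spread, and the log2 fold change was 1.08 ± 0.20 (limma adjusted p 0.177 over all probe sets). The 2 probe sets ordered the FoxO-null lines differently, with line 3 highest in the first and lowest in the second. The Pik3ip1 difference was 0.77 (limma adjusted p 0.111) once wild-type 1, whose rRNA control was high, was left out.

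Akt1 and Akt2 encode 2 of the Akt kinases, Akt1 being tied mainly to growth and survival and Akt2 to insulin-stimulated glucose uptake. The representing Akt1 probe set, 1416657_at, read 527, 513 and 605 in lines labelled FoxO-null against 732, 697 and 734 in lines labelled wild-type. The groups did not overlap, the wild-type lines were within a narrow range (721 ± 20.5 against 548 ± 49.9 in lines labelled FoxO-null), and the log2 fold change was -0.39 ± 0.11 (limma adjusted p 0.262). The other Akt1 probe sets did not repeat the separation. 1425711_a_at read 362, 396 and 468 against 403, 428 and 519.5 (-0.14 ± 0.14), and 1440950_at read 25.6, 55.5 and 75.2 against 57.2, 45.0 and 66.4 (-0.19 ± 0.35). The fourth, 1442759_at, was not above background on any wild-type array and was above it on 1 FoxO-null array, at 34.5, 7.23 and 20.1 against 5.29, 5.51 and 7.79. Most of these readings are at or below background and give no fold (limma adjusted p 0.725). Averaging all 4 turned the Akt1 difference to 0.068. The mean of the 3 above background on all arrays gave -0.24 (limma adjusted p 0.581), an alternative chosen after seeing the data.

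Akt2 signals were also lower in all 3 lines labelled FoxO-null, by less. Its representing probe set, 1424480_s_at, read 379.9, 361 and 348 against 391, 380.7 and 435. The highest FoxO-null line lay just under the lowest wild-type line, and the ratio was 0.905, with an interval of 0.759 to 1.08 that includes 1 (limma adjusted p 0.715). The suffix _s_at marks a probe set whose probes can match transcripts of more than 1 gene. 1421324_a_at read 104, 68.5 and 90.6 against 92.3, 99.2 and 83.6, with full overlap. The dimmest, 1455703_at, read 14.0, 18.5 and 17.9 against 18.2, 26.1 and 32.04. It was not above background on any FoxO-null array and was above it on all 3 wild-type arrays, whose own background was lower, and the readings overlapped (limma adjusted p 0.873).

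Over all 23 probe sets of the 8 genes, 11 log2 fold changes were positive and 12 negative. None passed the adjusted limma threshold over the 45037 non-control probe sets, of which 0.00222% did. Without adjustment, 5 had a limma p under 0.05, against 7.24% of all probe sets. Of these, 4 were higher, the Pik3ip1 pair and a pair for Igf1r (3.90% of all), and 1 was lower, for Akt1 (3.33%). The groups did not overlap in 8, against 12.6% of all, namely 5 higher ones, 3 for Igf1r and 2 for Pik3ip1 (6.95% of all), and 3 lower ones, for Insr, Akt1 and Akt2 (5.67%). Probe sets of a gene read the same RNA and are not replicates. Of the 6 genes with more than 1 probe set, Igf1r, Pik3r1, Pik3ip1 and Akt2 had 1 sign throughout, and Insr and Akt1 had both. Of the 23, 18 were above background on all 6 arrays.

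**Figure D2:**
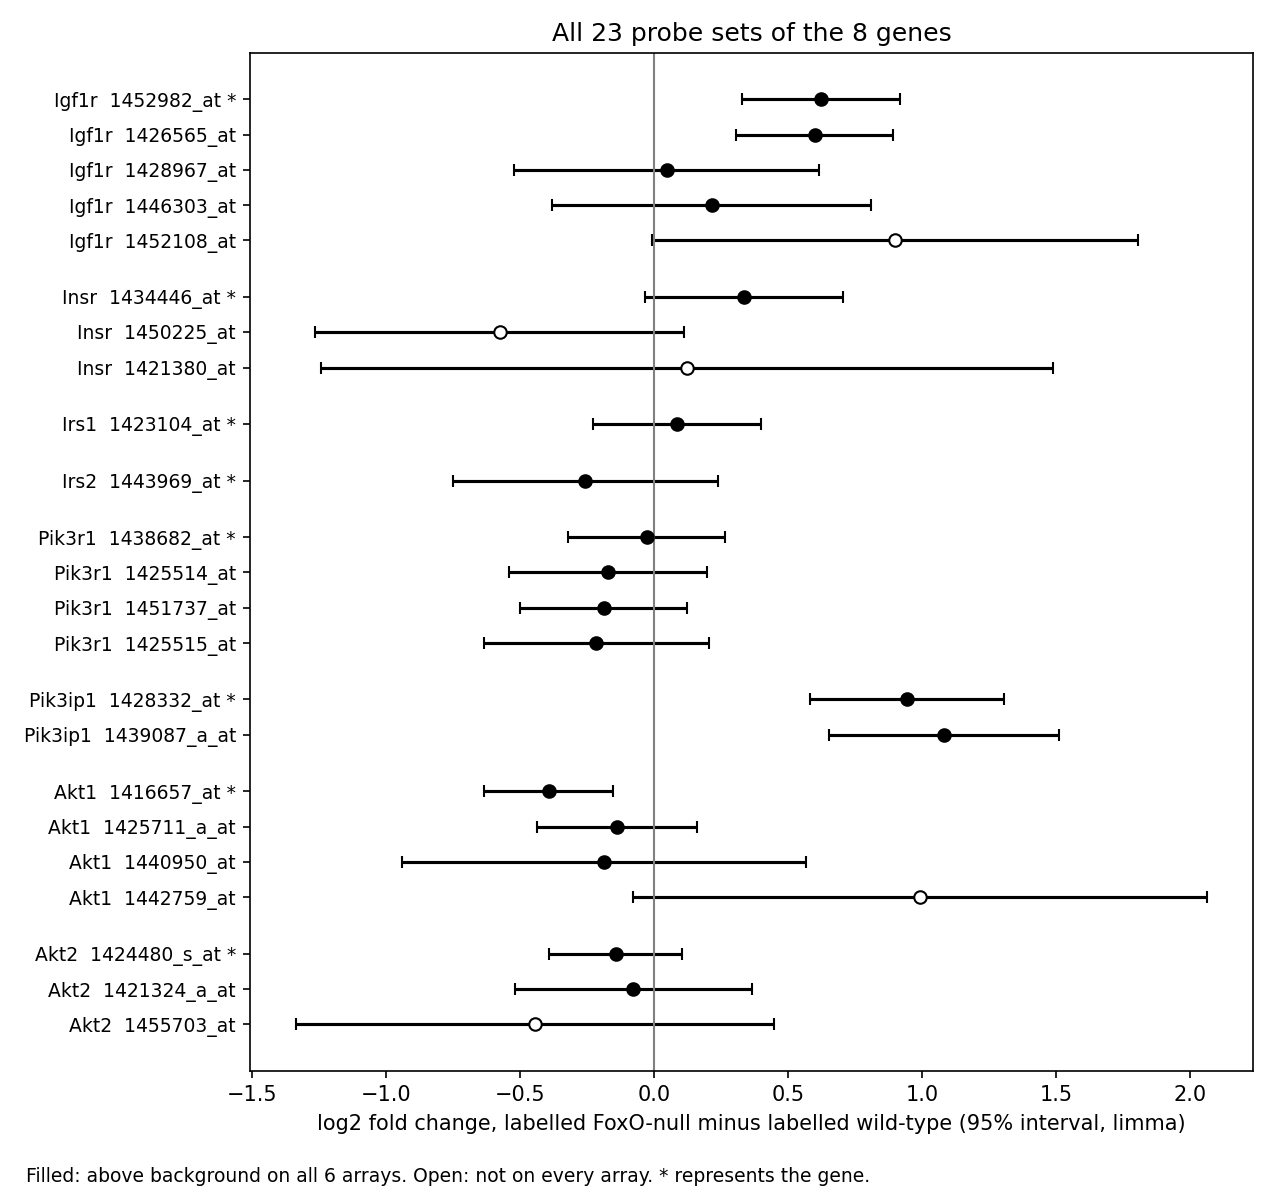
Log2 fold change (lines labelled FoxO-null minus lines labelled wild-type) of each of the 23 probe sets with its 95% interval from limma, grouped by gene, where filled points were above background on all 6 arrays and a star marks the probe set that represents the gene. Both Pik3ip1 intervals and those of 2 Igf1r probe sets lie above 0, only the representing Akt1 interval lies below 0, and the other 18 include 0.

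The rest of the pathway was described from a list of 78 other genes in 6 roles, drawn up with earlier results of these data known. Of these, 68 were tested, 5 were under the filter and 5 were not analysed here. None passed the adjusted limma threshold. Without adjustment, 2 higher (Pik3cd and Ddit4) and 1 lower (Tbc1d1) had a limma p under 0.05, which is 4.41% against 10.2% of all genes. The groups did not overlap in 8 of the 68 (5 higher and 3 lower), or 11.8%, against 16.0% of all genes. The median log2 fold change was 0.046, against 0.0098 for all genes tested, with 40 positive and 28 negative.

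By role, receptors and adaptors (14 tested) had a median of -0.061. They were led by p by the mannose 6-phosphate and IGF2 receptor gene Igf2r at -0.35 ± 0.17 and the docking protein gene Gab1 at 0.29 ± 0.14. PI3-kinase subunits (11 tested) had a median of 0.15, with 8 positive. The catalytic delta subunit gene Pik3cd, best known from leukocytes, read 212 ± 29.8 in lines labelled FoxO-null and 145 ± 30.5 in lines labelled wild-type (0.54 ± 0.18, limma adjusted p 0.328). The alpha subunit gene Pik3ca stood at 0.30 ± 0.16. Phosphatases (6 tested) had a median of 0.24, with 5 positive. Phlpp1 and Phlpp2, which remove an activating phosphate from Akt, did not overlap between groups and had higher signals in lines labelled FoxO-null, at 0.21 ± 0.11 and 0.39 ± 0.19 (limma adjusted p 0.539 and 0.536).

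Akt-family kinases and Pdpk1 (9 tested) had a median of 0.037. Sgk1, a related kinase that also phosphorylates FoxO, was at 0.41 ± 0.23, and Pdpk1, the kinase that activates Akt, was at -0.27 ± 0.16. The TSC and mTOR complex genes (14 tested) had a median of -0.030, with Ddit4, an inhibitor of mTOR complex 1, at 0.56 ± 0.17 (limma adjusted p 0.290), Prr5l, a partner of mTOR complex 2, at -0.45 ± 0.24 and the kinase gene Mtor at -0.22 ± 0.13. Substrates and effectors (14 tested) had a median of 0.0046. Tbc1d1, a Rab GTPase-activating protein gene that Akt regulates, read 125 ± 25.2 in lines labelled FoxO-null and 166 ± 10.9 in lines labelled wild-type (-0.40 ± 0.17, limma adjusted p 0.446), and Mdm2, the p53 ubiquitin ligase, was at -0.40 ± 0.20.

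**Figure D3:**
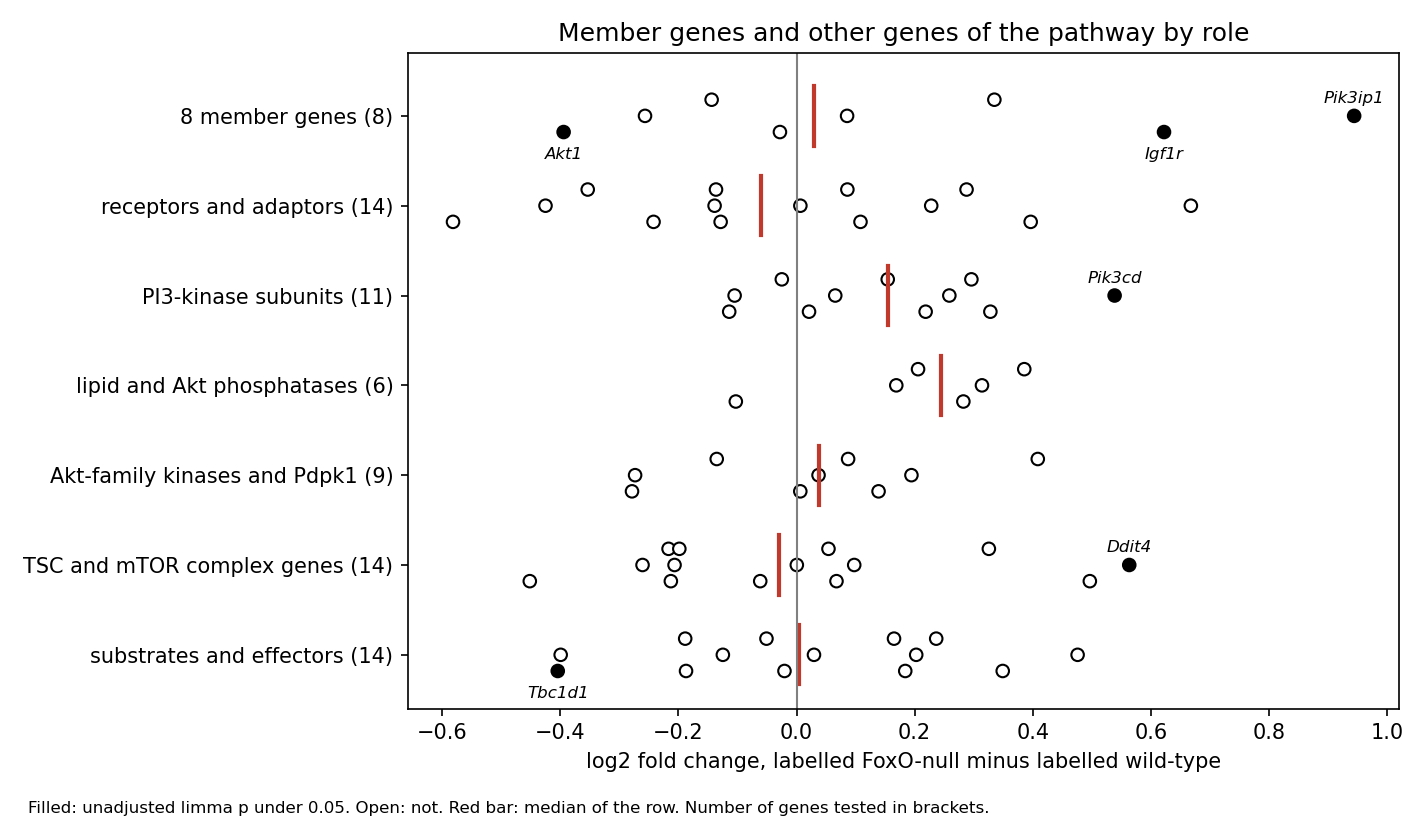
Log2 fold change (lines labelled FoxO-null minus lines labelled wild-type) of the 8 genes in the top row and of 68 other pathway genes by role in the rows under it, 1 point per gene, filled where the unadjusted limma p was under 0.05, with the median of each row as a red bar. Pik3ip1 at 0.94 lies to the right of all other points, and the medians of the 6 roles lie between -0.061 and 0.24.

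The genes whose profile over the 6 arrays was most like those of Pik3ip1 and Igf1r, the 2 genes of smallest p, were found by the root mean square difference of log2 deviations from each gene's own mean. Clone and predicted gene names were left out of this search, but not out of the medians. Nearest to Pik3ip1 were Id1, an inhibitor of bHLH factors, at 0.123, the astrocyte water channel gene Aqp4 at 0.125, and the sodium pump regulator gene Fxyd6 at 0.127, against a median of 0.560 (log2 units) for all genes. Aqp4 is among the astrocyte markers above and read 167, 130.5 and 142 in lines labelled FoxO-null against 60.5, 72.4 and 90.1 in lines labelled wild-type. Nearest to Igf1r were Id2 at 0.0687, the brain proteoglycan gene Ncan at 0.0741 and Hsf5 at 0.0903, against a median of 0.418. Ncan read 10211, 10859 and 11636 against 6487, 8836 and 6518, with wild-type 2 highest among its group as for Igf1r. Hsf5 was dim, between 12.5 and 31.1.

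The log2 fold change of Pik3ip1 lay between 0.77 and 1.03 and that of Igf1r between 0.37 and 0.77 in 16 alternatives, each with an unadjusted limma p under 0.05 in all 16. That of Akt1 was negative in 15 of them, with an unadjusted p under 0.05 in 14. Not under 0.05 were the alternatives that brought in other Akt1 probe sets. The mean of all gave 0.068 (unadjusted limma p 0.680), and the mean of those above background on all arrays gave -0.24 (0.170). The other alternatives kept the representing Akt1 probe set. Among the left-out arrays, adjusted p-values were highest without FoxO-null 1, at 0.537 for Pik3ip1, 0.728 for Igf1r and 0.729 for Akt1, while the differences themselves were 0.91, 0.60 and -0.37. With wild-type 1 left out for its 18S signal, Igf1r stood at 0.54 and Akt1 at -0.38.

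**Figure D4:**
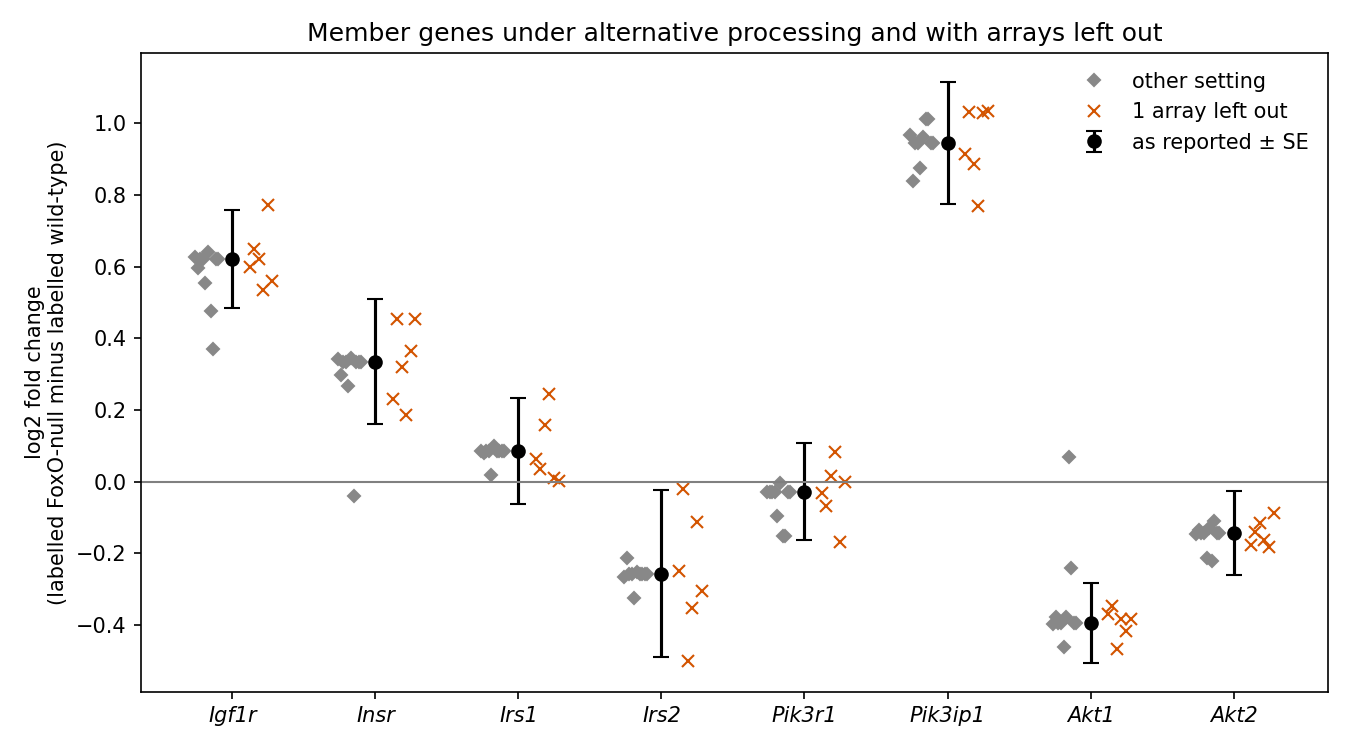
Log2 fold change (lines labelled FoxO-null minus lines labelled wild-type) of the 8 genes as reported (black, ± SE), under 10 other settings of the processing (grey) and with each of the 6 arrays left out in turn (orange). Pik3ip1 and Igf1r stay above 0 throughout, the 1 positive value of Akt1, at 0.068, comes from averaging all of its probe sets, and Insr and Pik3r1 have values on both sides of 0.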

How the data were processed

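Transcript levels were measured on 6 Affymetrix arrays, 1 per line. Biotinylated cRNA was made from total RNA per the labels' protocols. The authors' values are MAS5 signals, a linear intensity per probe set, per the submitters' processing notes, with no version given. All arrays had a mean of 100 after trimming 2% at each end (medians 25.5 to 32.8), so no further scaling was applied. Names came from GEO's platform annotation, and of 45037 non-control probe sets 34945 had 1 gene, 932 several and 9160 none.

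Signals were analysed as log2(signal + 5.94), where 5.94 is the 20th percentile over the arrays, and this offset makes differences of dim genes smaller. The probe set of highest mean log2 value stood for its gene, and genes whose mean was under the 40th percentile of non-control probe sets (a signal of 16.2) were left out. The gene fit used lmFit and eBayes with an intensity trend in limma 3.58.1 (R 4.3.3), two-sided, without covariates, with Benjamini-Hochberg adjustment over 12665 genes. The probe set fit took all 45037 without the filter. Ratios are 2 to the power of the fitted log2 difference. Background on an array was its highest signal among 27 Bacillus subtilis control probe sets. The script was tested on simulated data. The members, the pathway and marker lists and the named genes were chosen with earlier results of these data known. The rule named the members, the FoxO genes, per pathway role the genes past the threshold or otherwise the 2 of smallest p, a few fixed genes (here Pdpk1, Pik3ca and Mtor), and the 3 genes most like each of 2 members, leaving out clone and predicted gene names. With 3 lines a group the number of arrays limits precision, and an exact permutation test of 1 value cannot give a two-sided p under 0.1. Alternatives were other offsets, filters, scalings, probe set summaries, no trend, a replicate block and each array left out.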

Additional observations from a re-analysis of the deposited data

How the results depend on the processing

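None of the 8 genes or of their 23 probe sets passed the adjusted limma threshold under any alternative run, and 0 of the 68 other pathway genes did, with 3 of the 8, 5 of the 23 and 3 of the 68 at an unadjusted p under 0.05 as reported. The count over all genes, 5 as reported, was 1 with an offset of 1, with no filter, with quantile normalization, with the mean of all probe sets of a gene, and with the mean of those above background on all arrays, a setting chosen after seeing the data. It was 0 with median centring or without the trend, and 0 to 13 with 1 array left out (0 without FoxO-null 1, 1 without FoxO-null 3, 3 without wild-type 1 or 2, 13 without wild-type 3), where 819 to 1324 genes had an unadjusted p under 0.05. The count over all probe sets, 1 as reported, was 0 with an offset of 32, median centring, no trend or the replicate block, and 0 to 1 with 1 array left out. Pathway genes at an unadjusted p under 0.05 numbered 5 with either mean of probe sets and 3 to 8 with 1 array left out (5 and 8 without FoxO-null 2 and 3, 7 and 6 without wild-type 1 and 3). With the mean of all probe sets, Insr stood at -0.040 and Akt1 at 0.068, opposite in sign to the reported values. Akt1 then includes a probe set that was above background on 1 of 6 arrays. With 1 array left out, Pik3r1 (1438682_at) ranged from -0.17 to 0.084, and the probe set ranges that crossed 0 were -0.10 to 0.29 for Igf1r 1428967_at (-0.022 with median centring), -0.40 to 0.75 for Insr 1421380_at, -0.48 to 0.20 for Akt1 1440950_at, -0.20 to 0.078 for Akt2 1421324_a_at and -0.34 to 0.025 for Pik3r1 1425515_at. The cause was not tested. For lines of the same number, deviations from the group means correlated across genes at 0.0226, 0.0915 and 0.125 for numbers 1 to 3. Pairs of unlike number ran from -0.156 to 0.0776, and FoxO-null lines 1 to 3 each correlated best with its own number. Whether the numbers mark a shared batch was not tested. With the replicate block 6 genes passed over all genes, and Pik3ip1, Igf1r and Akt1 had adjusted p-values of 0.106, 0.164 and 0.258. Signals near background limit the dimmer probe sets of Igf1r, Insr, Akt1 and Akt2.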
